A study of Saccharomyces cerevisiae SK1 with 28 samples.

Results

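HIS1, HOM3 and LYS20 encode enzymes at the entrance of the histidine, threonine/methionine and lysine pathways of budding yeast. They are 3 of the 551 genes with a systematic name whose promoter windows held a listed ChIP-seq summit in at least 1 library of this series. The rows of the deposited tables that carry their gene symbols were taken, 9 of 1369 rows in all. The genes were selected on their listing in both libraries of DTT-treated cells, so their presence, ranks and distances in these tables are a description and carry no test. The series profiled wild-type cells of the SK1 strain, which sporulates efficiently, in 7 states with 2 ChIP libraries each. Vegetative cells in exponential growth in the rich medium YPD received DTT, a reducing agent that disturbs disulfide bond formation in the endoplasmic reticulum. Premeiotic cells were moved from YPD to the medium BYTA and taken after 6 h and 21 h, and meiotic cells were taken from sporulation medium after 5.5 h, 6 h 45 min and 8 h. Vegetative cells without DTT are the baseline. No source used here names the protein that was precipitated, how much DTT was given and for how long, or how many reads each library had. The labels do not say whether replicates are separate cultures, so their spread may be technical.

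Amino acid pathways in yeast are controlled mainly at their entry steps, where the end product inhibits the enzyme, and by transcription. HIS1 encodes ATP phosphoribosyltransferase, which commits phosphoribosyl pyrophosphate to histidine and is inhibited by histidine. HOM3 encodes aspartate kinase, which opens the aspartate family route to threonine and methionine and is inhibited by threonine. LYS20 encodes a homocitrate synthase, which starts the fungal aminoadipate route to lysine, is inhibited by lysine and has an isozyme encoded by LYS21. When amino acids run short, translation of the transcription factor Gcn4 rises, and Gcn4 activates genes in most of these pathways.

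Per the file headers, a row ties a peak summit to a promoter window of 600 bp that holds it and ends at a gene start. The window of HIS1 (YER055C, SK1_05G01290) spans positions 285229 to 285828 of chromosome V, on the minus strand. The window of HOM3 (YER052C, SK1_05G01260) spans positions 277386 to 277985 of the same chromosome, also on the minus strand. The window of LYS20 (YDL182W, SK1_04G00610) spans positions 145085 to 145684 of chromosome IV, on the plus strand. Positions are in the SK1 coordinates of the deposited tables, and no source used here names the assembly version. All 9 summits lay in the window of 1 gene and in no other, so none of them is shared with a divergent neighbour. This was common. It held for 169 of the 282 genes listed in both DTT libraries (59.9%). At 6 h in BYTA it held for 62 of the 105 genes listed in both libraries (59.0%).

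With DTT, all 3 genes were listed in both libraries, and a gene listed in both libraries of a state is called below. Of 6021 protein-coding genes, 4.68% were called with DTT, and nothing is read from the comparison since this call chose the genes. All 3 were also absent from both vegetative lists, a combination found for 4.52% of protein-coding genes. Of the 282 genes called with DTT, 272 were absent from both vegetative lists, so nothing is read from this absence either. At 6 h in BYTA, LYS20 was listed in both libraries, HIS1 in replicate 1 only and HOM3 in neither. There 1.74% of protein-coding genes were called, and replicate 1 alone listed 5.65%. Among the 282 genes called with DTT, from which the 3 were selected, 175 were listed in replicate 1 at 6 h in BYTA. LYS20 was 1 of 77 genes called in both of these states, which is 1.28% of protein-coding genes. HOM3 was thus listed in 2 libraries, HIS1 in 3 and LYS20 in 4 of the 14. The 2 libraries at 21 h in BYTA, the 6 libraries from sporulation medium and the 2 vegetative libraries listed none of the 3 genes. These 10 libraries had short lists of 4 to 23 summits, against 296 and 245 with DTT and 277 and 91 at 6 h in BYTA. The share of protein-coding genes called was 0.448% at 21 h in BYTA. In sporulation medium it was 0.116% after 5.5 h, 0.216% after 6 h 45 min and 0.282% after 8 h, and in vegetative cells 0.249%.

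**Figure D1:**
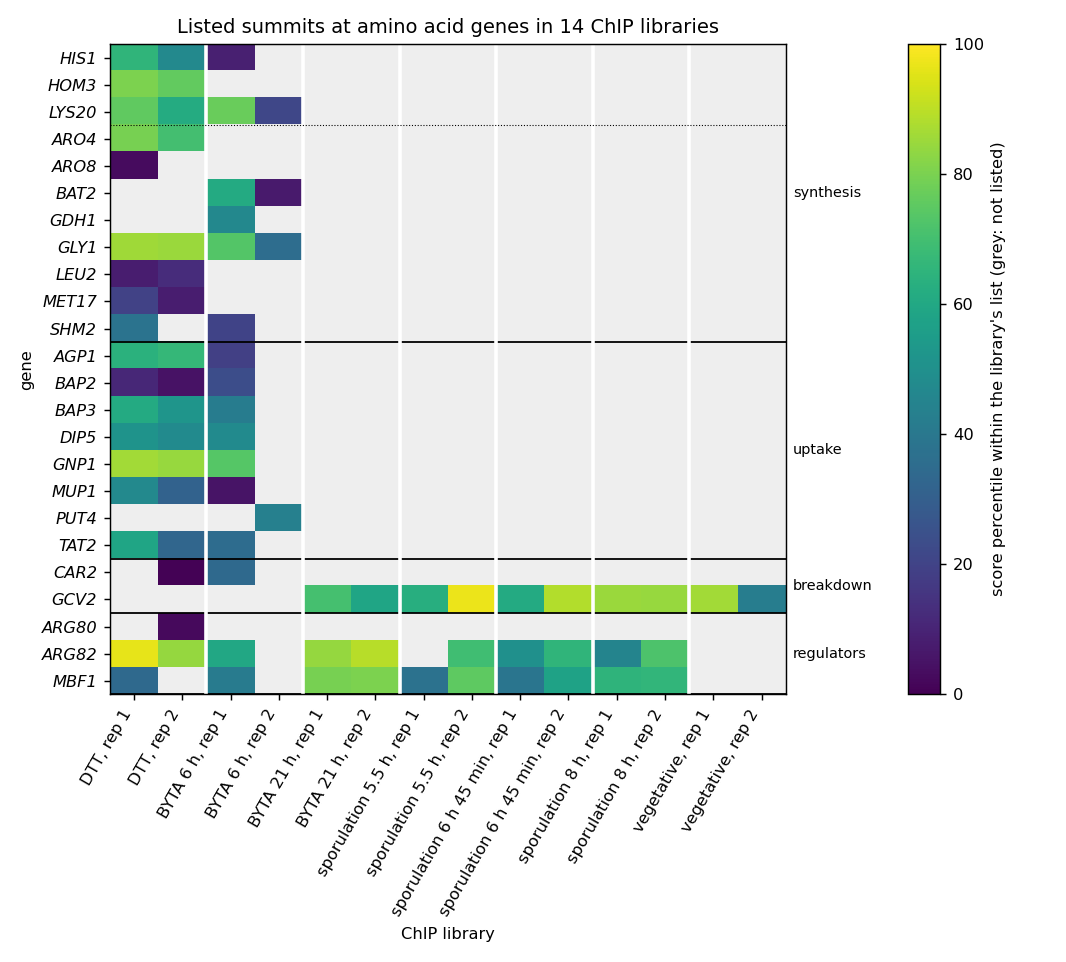
Rows are amino acid genes with a listed summit in at least 1 library, grouped as synthesis, uptake, breakdown and regulators, with HIS1, HOM3 and LYS20 on top; columns are the 14 ChIP libraries. Colour gives the percentile of the summit score within the list of that library, and grey means not listed: in the 3 top rows both DTT columns have colour for each gene, the 6 h BYTA columns have colour for LYS20 in both replicates and HIS1 in replicate 1, and all else is grey.

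Absence from a list is not evidence that a promoter was free of the protein, because the tables hold a selection of the peaks. The numbers in the peak names rose with position along each chromosome in all 14 tables, and many numbers were not listed. Around HOM3, the nearest listed summits in replicate 1 at 6 h in BYTA were 113 kb apart, with 22 unlisted peak numbers between them. In replicate 2 at 6 h in BYTA, a stretch of 200 kb around both HOM3 and HIS1 had 25 unlisted peak numbers. Whether any of these unlisted peaks lay at HOM3 or HIS1 cannot be read from the tables. For LYS20, the count of unlisted numbers between the flanking listed summits was 27 and 57 in the libraries at 21 h in BYTA, over 204 and 621 kb.

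The deposited score is the authors' own value for a summit, its type is not named in the headers, and it was used only to rank summits within a list. In the DTT lists, HOM3 stood highest, LYS20 next and HIS1 lowest, in the same order in both libraries. HOM3 had rank 59 of 296 summits (score 1656) in replicate 1 and rank 59 of 245 (score 1197) in replicate 2. LYS20 had rank 73 of 296 (score 1427) and rank 95 of 245 (score 957). HIS1 had rank 103 of 296 (score 1082) and rank 130 of 245 (score 727). All were well above the lowest listed scores of 315 and 333, and only HIS1 in replicate 2 lay below the median score of its list, 772.

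On a percentile scale, where 100 is the top of a list, HOM3 averaged 78.2 ± 2.91 with DTT, LYS20 68.5 ± 9.95 and HIS1 56.3 ± 12.9 (SD, n = 2 each). HOM3 lay above LYS20 in every pairing of libraries, with 80.2 and 76.1 against 75.5 and 61.4, though the closest values are under 1 percentile apart. LYS20 and HIS1 overlapped, since HIS1 had 65.4 in replicate 1 and 47.1 in replicate 2, so these neighbours in the order do not differ beyond their spread. The 282 genes called with DTT had a median of 57.5 and quartiles of 34.8 and 78.9, so the 3 genes stood in the middle and upper parts of the list and none near its top. Replicates differed by 4.11 percentiles for HOM3, 14.1 for LYS20 and 18.2 for HIS1, beside a median of 7.54 over the 282 genes.

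**Figure D2:**
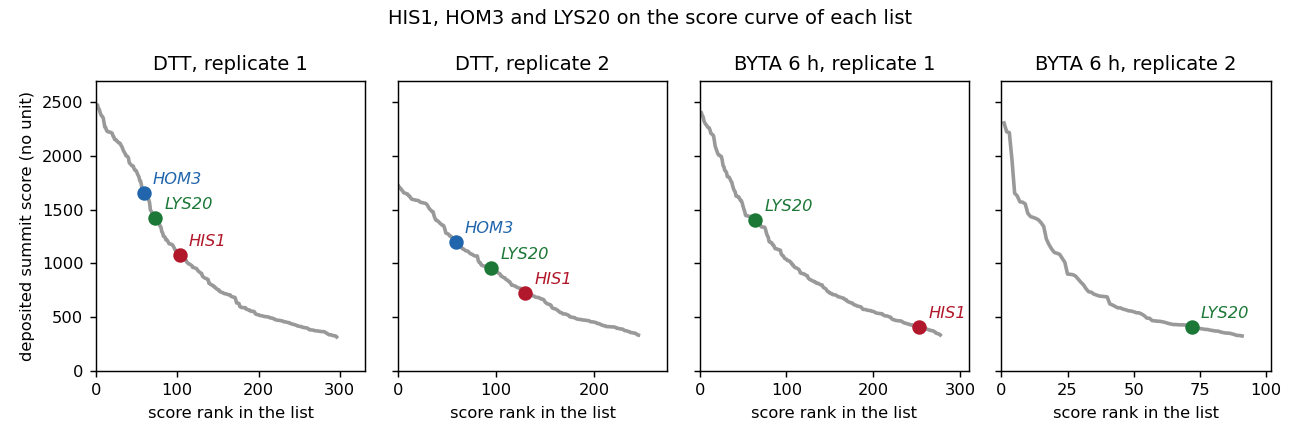
Each panel plots the deposited summit score (no unit) against its rank for 1 list: DTT replicates 1 and 2, then 6 h BYTA replicates 1 and 2; the grey line holds all summits and points mark HIS1, HOM3 and LYS20. HOM3, LYS20 and HIS1 come in this order on both DTT curves, while at 6 h in BYTA LYS20 lies at rank 64 of 277 and 72 of 91 and HIS1 at rank 253 of 277.

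At 6 h in BYTA the replicates placed LYS20 differently. It had rank 64 of 277 (score 1402, percentile 77.1) in replicate 1 and rank 72 of 91 (score 409, percentile 21.4) in replicate 2. The lowest listed scores of these libraries were 334 and 325, so LYS20 was near the lower end of the list in replicate 2. The difference of 55.6 percentiles between replicates compares with a median of 28.1 over the 105 genes called at this time. With DTT LYS20 averaged 68.5 ± 9.95, and at 6 h in BYTA 49.3 ± 39.3 (SD, n = 2 each), a difference within the spread of the BYTA replicates.

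HIS1 stood at rank 253 of 277 in replicate 1 at 6 h in BYTA, with a score of 405 (percentile 8.84), close above the lowest listed score. Of the 64 other genes within 25 ranks of HIS1 in that list, 0 were listed in replicate 2. Of the 63 other genes within 25 ranks of LYS20, 46 were listed in replicate 2 (73.0%). HIS1 was missing from the list of replicate 2 together with every gene of like rank, and LYS20 was present with most of its like-ranked genes. The ranks near HIS1 are the lower end of a list of 277 summits, set against a list of 91. Why HIS1 was missing was not tested.

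HOM3 was listed at 6 h in BYTA in neither replicate. Of the 67 other genes within 25 ranks of HOM3 in DTT replicate 1, 49 appeared in 1 or both of the 6 h BYTA lists (73.1%), and in DTT replicate 2 it was 51 of 64 (79.7%). HOM3 belongs to the smaller share of well-ranked DTT genes without a listed summit at 6 h in BYTA.

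Summits lay at different distances from the 3 gene starts and were tightly placed between DTT replicates. With DTT, the summits at HIS1 lay 220 and 224 bp upstream of the gene start, at positions 285448 and 285452. Those at HOM3 lay 305 and 306 bp upstream, at positions 277690 and 277691. Those at LYS20 lay 479 and 476 bp upstream, at positions 145206 and 145209. The ranges of the 3 genes do not overlap, and the replicate differences of 4, 1 and 3 bp sit below the median of 5.5 bp over all genes called with DTT. Over these 282 genes the distance had a median of 355 bp and quartiles of 252 and 469 bp. HIS1 was thus nearer to its gene start than the lower quartile, with 80.9% of called genes farther out. LYS20 lay beyond the upper quartile, with 23.0% farther out, and HOM3 lay between the quartiles.

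**Figure D3:**
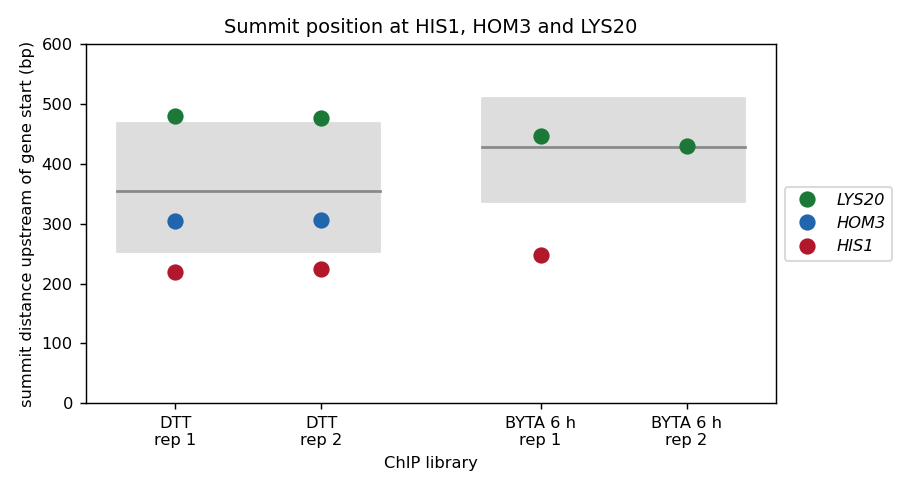
Points give the distance in bp from the gene start to the summit at LYS20, HOM3 and HIS1 in each library that listed them; grey bands span the quartiles of all genes called in DTT or at 6 h in BYTA, with the median as a line. The genes keep separate distances, about 222 bp for HIS1, 305.5 bp for HOM3 and 477.5 bp for LYS20 with DTT, and LYS20 is nearer to its gene at 6 h in BYTA.

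At LYS20 the summits lay 479 and 476 bp upstream with DTT, against 446 and 429 bp at 6 h in BYTA (positions 145239 and 145256). The means were 477.5 ± 2.12 bp with DTT and 437.5 ± 12.0 bp at 6 h in BYTA (SD, n = 2 each), and the libraries of the states do not overlap. The difference, DTT minus 6 h in BYTA, was 40 bp. Among the 77 genes called in both states, the median absolute difference was 15 bp and 15 genes differed by at least as much as LYS20 (19.5%). In 23 of the 77, LYS20 included, both DTT summits lay farther upstream than both BYTA summits (29.9%). This share covers the direction seen at LYS20 only, and the reverse order was not counted. Of the differences in mean distance, 37 were positive and 39 negative. A summit shared by 2 divergent genes enters for each gene with opposite signs, as at OLE1 (57.5 bp) and SDS23 (-57.5 bp). Nothing is therefore read from this balance. The shares of genes given here likewise count genes, not distinct summits, whereas the LYS20 summits lay in 1 window only. At HIS1 the summits lay 220 and 224 bp upstream with DTT, against 248 bp in replicate 1 at 6 h in BYTA (position 285476). The difference was -26 bp, in the other direction than at LYS20, and 45 of 175 genes called with DTT and listed in that library differed by at least as much (25.7%).

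**Figure D4:**
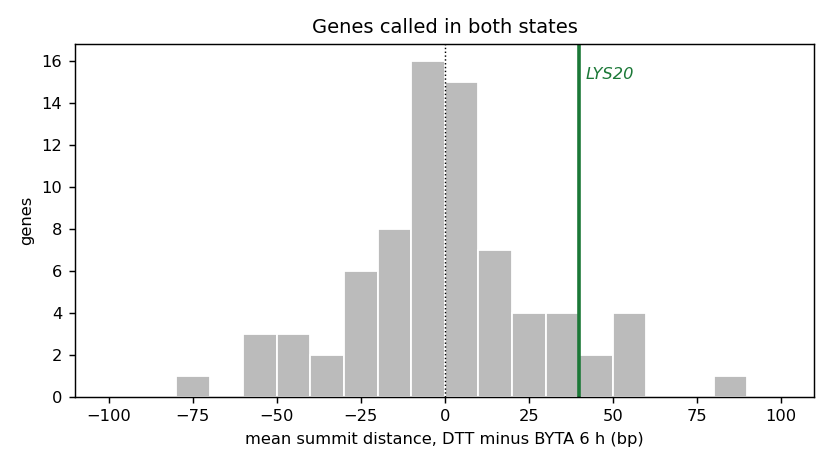
The histogram counts genes called in the DTT and 6 h BYTA states by their mean summit distance with DTT minus that at 6 h in BYTA, in bins of 10 bp; the green line marks LYS20. Of the 77 genes, 76 fall within 100 bp and are shown, 1 lies beyond, 37 differences are positive and 39 negative, and LYS20 at 40 bp lies to the right of most. A summit shared by divergent genes enters for each of them, with opposite signs.

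HOM3 and HIS1 are near each other on chromosome V, with gene starts 7.84 kb apart. Their DTT summits lay 7758 bp apart in replicate 1 and 7761 bp in replicate 2. In the gene order of the R64 reference assembly the genes between them are PIC2, YER053C-A and GIP2, and 0 of these 3 were listed in any library. The peak numbers between the HOM3 and HIS1 summits, 3 in replicate 1 and 2 in replicate 2, were not listed either. FCY2 beyond HIS1 and JHD1 beyond HOM3 were also listed nowhere. At LYS20, the divergent neighbour MRX19 was listed nowhere, while INH1, the gene after LYS20, was listed in replicate 1 at 6 h in BYTA.

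The counts by pathway include the 3 genes that were selected on their DTT call, beside 4.68% of all protein-coding genes called with DTT, and nothing is read from them. In the histidine pathway HIS1 was the called gene with DTT, 1 of 7, and HIS2 to HIS7 were listed in no library. In the route from aspartate to threonine and methionine, HOM3 and MET17 were called with DTT, 2 of 9. MET17 encodes O-acetylhomoserine sulfhydrylase, which incorporates sulfide on the way to methionine, and it stood low at ranks 238 of 296 and 226 of 245. In the lysine pathway LYS20 was called, 1 of 9, and ARO8, which encodes an aminotransferase, was listed at rank 288 in DTT replicate 1 alone. LYS21, the isozyme gene, was listed in no library.

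Over 9 lists with 82 amino acid synthesis genes, 7 were called with DTT (8.54%), beside 4.68% of all protein-coding genes. Without HIS1, HOM3 and LYS20, 4 of 79 were called (5.06%), a share near that of all genes. These 4 were ARO4, GLY1, LEU2 and MET17. ARO4 encodes an enzyme of the first step of aromatic amino acid synthesis. It had ranks of 61 and 74 in DTT replicates 1 and 2, against 59 and 59 for HOM3. Its summits lay 359 and 355 bp upstream, farther out than the 305 and 306 bp of HOM3. GLY1, which encodes threonine aldolase and shares its summits with IES6, ranked above all 3 genes at 43 and 37. LEU2, which encodes isopropylmalate dehydrogenase of leucine synthesis, ranked 273 and 214, below all of them. At 6 h in BYTA, LYS20, GLY1 and BAT2, a branched-chain aminotransferase gene, were called, 3 of 82 (3.66%, beside 1.74% of all genes). Without HIS1, HOM3 and LYS20, 2 of 79 were called there (2.53%). Replicate 1 also listed HIS1, SHM2 and GDH1, which made 6 of 82 (7.32%, beside 5.65% of all genes). In the other 5 states 0 of the 82 were listed in any library.

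Of the genes for amino acid uptake, 7 had the listing pattern of HIS1 and PUT4 had another. AGP1, BAP2, BAP3, DIP5, GNP1, MUP1 and TAT2, 7 of 18 permease genes on the list (38.9%, beside 4.68% of all genes), were called with DTT. The list was chosen with earlier results of these data known, so no enrichment is read from this share. All 7 were also listed in replicate 1 and missing in replicate 2 at 6 h in BYTA, as HIS1 was. This pattern was common, with 93 of the 551 listed genes (16.9%), so no link to HIS1 is read from it. PUT4, the proline permease gene, was listed in replicate 2 at 6 h in BYTA alone, at rank 52 of 91, by a summit shared with CIN1. GNP1, which encodes a glutamine permease, had the best ranks, 41 and 38 with DTT and 73 at 6 h in BYTA. BAP2, a branched-chain permease gene, had DTT ranks of 263 and 234. Mean DTT distances of the 7 ran from 339.5 bp at MUP1, the methionine permease gene, to 560 bp at GNP1. All were farther upstream than at HIS1, as were 80.9% of all genes called with DTT, so nothing is read from this. HIP1 and LYP1, which encode the histidine and lysine permeases, were listed in no library. GNP1 and TAT2 share their summits with SMT3 and DIS3, and 5 of the 7 were called when each summit was given to its closest gene alone.

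Patterns identical to those of the 3 genes over the 14 libraries were common. HOM3 shared its pattern, both DTT libraries and no other, with ARO4, LEU2 and MET17, among others, and 102 of the 551 listed genes had it (18.5%). HIS1 had the pattern of 93 genes (16.9%) and LYS20, with GLY1, that of 65 (11.8%). Among genes with the same pattern (Jaccard index of 1 over 14 libraries), those with the closest percentiles to HOM3 were TOS1 with YSY6, ARO4, and SCS3 with SOH1. To HIS1 they were STE24, MNN1, CDC45 with LCL2, and YGR035C, and to LYS20 they were PDR15, MAM3, GIC2, HHT2 and FBA1. The mean difference from these ran from 0.915 percentiles for TOS1 to 9.82 for YGR035C.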

How the data were processed

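ChIP-seq tables of 14 libraries, 2 per state, were used, and inputs were not used here. The submitters' processing notes name ChIPseeker 1.44.0, MACS2 2.2.9.1, SAMtools 1.7 and Bowtie2 2.3.4.1 but no roles. The deposited score of each summit is the authors' own, per the file headers, and no source used here states its type, the control, the depth or the rule that selected summits. The library name at the start of each peak name tied a table to its sample.

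Summits were ranked by score within a table. The percentile is 100 × (n - rank + 0.5)/n. Distance runs from summit to gene start, the first base past the window. All 551 gene names and the 128 genes of 12 lists matched the RefSeq gene table of assembly R64, which holds 6021 protein-coding genes.

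The genes and lists were chosen with earlier results of these data known, so no test was made. Named genes are HIS1, HOM3 and LYS20, every list gene with a summit, LYS21, and the 5 genes most alike in pattern to each; other neighbours and unlisted list genes were named after their values were seen. A gene of the lists is not reported here and was left out of their counts. Promoter sequences and motifs were not analysed here. Alternatives were calling in either replicate, each replicate alone, the nearest gene only, scores of at least 500, ranks among genes and the summit nearest the gene. Python 3.11.15 and pandas 2.3.3 were used, and ranks, distances and calls were tested on simulated data.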

Additional observations from a re-analysis of the deposited data

How the results depend on the processing

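With DTT, the counts of HIS1, HOM3 and LYS20 (3 of 3), synthesis genes (7) and uptake genes (7) stayed within 1.5 times under every alternative run. At 6 h in BYTA the counts depended on replicate 2. The same held over all genes, with 105 called, 340 listed in replicate 1 and 111 in replicate 2. Shares of all genes for either replicate and for scores of at least 500 are not given here, so nothing is read from those counts. Called in either replicate, 2 of the 3 genes, 6 synthesis genes and 8 uptake genes were counted, in place of 1, 3 and 0. With 1 replicate left out, the ranges were 1 to 2, 3 to 6 and 1 to 7. With scores of at least 500, 0 of the 3 genes and 0 synthesis genes were called at 6 h in BYTA, since LYS20, GLY1 and BAT2 had scores of 409, 462 and 351 in replicate 2. Alternatives for uptake genes were chosen after seeing the data. The mean percentile of LYS20 at 6 h in BYTA, 49.3, was 21.4 without replicate 1 and 77.1 without replicate 2. With 2 replicates, leaving out 1 always stays within 1 SD of the mean, so for percentiles and distances that limit says nothing about stability. The alternative for motifs was not run. No paired analysis was possible because the results come from no test. Depth is unknown, and the lists of the other 5 states are too short to place these genes.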

Other observations

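Of 17 regulator genes of amino acid synthesis, ARG82, MBF1 and ARG80 were listed in at least 1 library, and of 11 breakdown genes GCV2 and CAR2 were. With DTT, 1 of 17 regulators (5.88%) and 0 of 11 breakdown genes were called, beside 4.68% of all protein-coding genes. At 21 h in BYTA it was 2 of 17 (11.8%) and 1 of 11 (9.09%), beside 0.448%. At each time in sporulation medium it was 1 or 2 of 17 and 1 of 11, beside 0.116% to 0.282%. In vegetative cells it was 0 of 17 and 1 of 11, beside 0.249%. The lists were chosen with earlier results of these data known, so nothing is read from these shares. ARG82, which encodes an inositol polyphosphate multikinase needed for arginine control, was listed in 10 libraries together with its neighbour HMO1. Its summits lay 240 and 243 bp upstream with DTT and 257 bp upstream in replicate 1 at 6 h in BYTA, against 185 to 211 bp in the 7 libraries from 21 h in BYTA and sporulation medium that listed it. MBF1, which encodes a coactivator of Gcn4, was also listed in 10 libraries, each time by a summit shared with BUD7. Its summits lay 208 bp upstream in DTT replicate 1 and 201 bp in replicate 1 at 6 h in BYTA, against 243 to 263 bp in the 8 later libraries. The shifts at these promoters ran in opposite directions and were not tested. GCV2, a glycine decarboxylase gene that shares its summit with MRPS17, was listed in 10 libraries, all of them outside DTT and 6 h in BYTA. CAR2, the ornithine transaminase gene, had rank 244 of 245 in DTT replicate 2 and rank 183 of 277 in replicate 1 at 6 h in BYTA. It was listed nowhere else and shares both summits with DIF1. ARG80, which encodes a transcription factor of arginine metabolism, had rank 239 of 245 in DTT replicate 2 and was listed in no other library. It shares this summit with ARA2. GCN4, GCN2, BAS1 and LYS14, regulator genes of amino acid synthesis, were listed in no library.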
